A study of Homo sapiens with 6 samples.

Results

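The transcripts of 10 genes of the death receptor and caspase-8 pathway were examined in MDA-MB-231 cells, a human triple-negative breast cancer line, after treatment with nitidine chloride (NCD), a plant alkaloid. The genes were chosen by symbol: the ligand TNFSF10, the receptors TNFRSF10A, TNFRSF10B, FAS and TNFRSF1A, the decoy receptors TNFRSF10C and TNFRSF10D, the adaptor FADD, the protease CASP8 and its inhibitor CFLAR. All 10 were found among the 63241 Ensembl gene identifiers of the count files, and all 10 were among the 15295 genes expressed highly enough to be tested. The study sequenced these cells to look for the mechanism behind the immune effects of NCD in this cancer. Its 2 groups of wild-type cells received 5 μM NCD or 0.1% DMSO for 24 hours, with 3 libraries in each group. The solvent given alongside NCD is not stated in the labels. Nothing in the labels says that the libraries of a group came from separate cultures, so p-values measure only the spread between these libraries, which may be technical. The cell line field gives MDA-MB-231 for every library, although the description text of 2 libraries, NCD 2 and NCD 3, carries other line numbers.

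Library totals ran from 18223594 to 19410833 counts with DMSO and from 18232169 to 21629653 with NCD. All 6 marker genes of MDA-MB-231 were expressed, with a summed level of 6364.3 to 6647.9 counts per 1000000 (CPM) with DMSO and 3803.9 to 4100.7 CPM with NCD. The hormone receptor genes ESR1 and PGR were at no more than 0.384 CPM in any library. ERBB2, the third gene of the triple-negative definition, was at 35.2 to 38.4 CPM with DMSO and 58.3 to 62.5 CPM with NCD. The list of genes taken as absent also held GATA3, EPCAM and FOXA1, which were not all absent. GATA3 was at 5.91 to 7.35 CPM and EPCAM at 2.52 to 4.20 CPM over all libraries. FOXA1 reached 0.396 CPM with DMSO and 1.86 CPM with NCD, and was higher in every NCD library. The 6 immune cell markers summed to at most 1.00 CPM. Markers of fibroblasts and endothelium summed to 5.04 to 6.25 CPM with DMSO and to 19.2 to 21.2 CPM with NCD, carried by COL1A1 and PDGFRB, with DCN at no more than 0.0517 CPM. The part of these shifts in the results was not tested. DMSO 2 and NCD 3 stood apart from the other libraries of their groups, with chi-square values of 7.88 to 15.4 for each degree of freedom, taken across genes, in pairs that hold one of them, against 4.17 for DMSO 1 and 3 and 2.05 for NCD 1 and 2. Values without both of them are given beside several results.

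Death receptors are members of the TNF receptor superfamily that carry a cytoplasmic death domain. When TRAIL or FAS ligand binds, the receptor recruits the adaptor FADD, which gathers procaspase-8 through death effector domains, and the clustered protease activates itself and then cleaves executioner caspases and BID. Decoy receptors bind TRAIL without a working death domain, and FLIP, the product of CFLAR, resembles caspase-8 but competes for its place in the complex, so that the balance of receptors, caspase and FLIP is known to set how readily a cell dies. TNF receptor 1 works differently, since it first builds a complex with TRADD and RIPK1 that turns on NF-kB and only later can engage FADD and caspase-8.

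Promoter windows from RefSeq on GRCh38.p14 were read for CASP8, CFLAR, FAS, FADD, TNFRSF1A and TNFSF10, and 5 windows that hold a match to a searched motif are printed: FAS for its change, CASP8 and CFLAR as neighbouring genes on chromosome 2, and TNFSF10 for the element it shares with CASP8. Each runs 5′ to 3′ on the gene's own strand, from 250 bases before an annotated start to 10 bases after it, with the motif match in capitals. The windows lie at chr10:88990548-88990807 and chr10:88991181-88991440 on the plus strand for FAS, at chr2:201233213-201233472 on the plus strand for CASP8, at chr2:201118466-201118725 on the plus strand for CFLAR, and at chr3:172523421-172523680 on the minus strand for TNFSF10.
FAS, upstream start: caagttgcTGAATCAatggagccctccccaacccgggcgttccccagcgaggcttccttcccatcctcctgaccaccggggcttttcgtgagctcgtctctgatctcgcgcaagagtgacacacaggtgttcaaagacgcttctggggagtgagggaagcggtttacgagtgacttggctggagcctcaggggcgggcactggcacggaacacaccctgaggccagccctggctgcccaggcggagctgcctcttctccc
FAS, downstream start: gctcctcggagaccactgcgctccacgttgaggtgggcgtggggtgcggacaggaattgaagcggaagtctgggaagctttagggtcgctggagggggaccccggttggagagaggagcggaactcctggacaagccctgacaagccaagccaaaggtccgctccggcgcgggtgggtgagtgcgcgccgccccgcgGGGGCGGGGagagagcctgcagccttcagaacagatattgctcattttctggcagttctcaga
CASP8: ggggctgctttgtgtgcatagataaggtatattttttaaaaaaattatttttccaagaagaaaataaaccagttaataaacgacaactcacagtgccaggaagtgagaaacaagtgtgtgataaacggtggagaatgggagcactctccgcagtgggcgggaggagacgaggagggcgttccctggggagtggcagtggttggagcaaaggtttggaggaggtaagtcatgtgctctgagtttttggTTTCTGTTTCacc
CFLAR: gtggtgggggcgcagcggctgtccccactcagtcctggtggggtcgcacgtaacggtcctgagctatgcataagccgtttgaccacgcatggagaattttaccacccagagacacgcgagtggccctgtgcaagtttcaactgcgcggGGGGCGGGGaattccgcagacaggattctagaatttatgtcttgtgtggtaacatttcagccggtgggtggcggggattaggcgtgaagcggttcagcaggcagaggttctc
TNFSF10: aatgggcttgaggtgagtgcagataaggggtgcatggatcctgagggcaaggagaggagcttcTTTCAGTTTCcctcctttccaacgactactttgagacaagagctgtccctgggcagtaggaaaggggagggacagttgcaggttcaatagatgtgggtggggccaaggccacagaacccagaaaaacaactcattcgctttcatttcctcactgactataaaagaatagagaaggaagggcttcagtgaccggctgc

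The capitals in the CASP8 and TNFSF10 windows are the interferon-stimulated response element core, GAAA, any 2 bases and GAAA, here read on the opposite strand. This core stood in 3.57% of the 35116 promoter windows of 300 bases that were searched on both strands. In CASP8 its first base lies 3 bases before the start, and in TNFSF10 187 bases before it. The capitals in the first FAS window, TGAATCA, match TGANTCA, the letters searched for AP-1. With any base in the middle, 7.71% of windows held these letters. They also stood in 2 further windows of CASP8 (TGAGTCA and TGACTCA) and 1 of CFLAR (TGAATCA) that are not printed, and in that of FADD (TGAATCA). The search counted all middle bases alike. The capitals in the second FAS window and in the CFLAR window are a GC box, GGGGCGGGG, held by 15.7% of windows and by 1 further CFLAR window that is not printed. No window of these genes held the NF-kB letters GGG, any 2 bases and TTTCC, or the amino acid response and CHOP composite letters TGATGNAA, found in 1.91% and 3.62% of windows. Variants of these letters were not searched, so other forms of such sites may be present. A match is only a description of the letters, and binding was not measured.

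With NCD, FAS was the one gene of the 10 that changed past the fold limit, and it rose 2.42-fold. TNFRSF10C, TNFRSF10D and CASP8 rose and TNFRSF10B, TNFRSF1A, FADD and CFLAR fell by less than that limit, while TNFSF10 and TNFRSF10A did not pass the test. At an absolute log2 fold change above 1, the study's fold limit, together with an adjusted p below 0.05, set here, 1 of the 10 genes was higher and 0 were lower, and 31.0% of all tested genes passed it in either direction (13.5% higher, 17.5% lower). At an adjusted p below 0.05 with no fold limit, 4 of the 10 were higher and 4 lower, against 69.3% of all tested genes (35.3% higher and 34.1% lower). Those 8 genes are also the ones whose libraries did not overlap between the groups, 4 with every NCD library higher and 4 with every one lower, and 72.6% of tested genes had such groups (37.3% higher, 35.3% lower). With only 10 genes, these counts do not set them apart from all tested genes. Their median absolute log2 fold change was 0.43, and that of all tested genes was 0.63. Adjusted p here is from the quasi-likelihood test of edgeR, adjusted by Benjamini and Hochberg's method over the 15295 genes, and each level is in CPM on library sizes scaled by the trimmed mean of M-values (TMM). In bulk RNA, fewer cells that express a gene and less RNA per cell cannot be told apart.

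**Figure D1:**
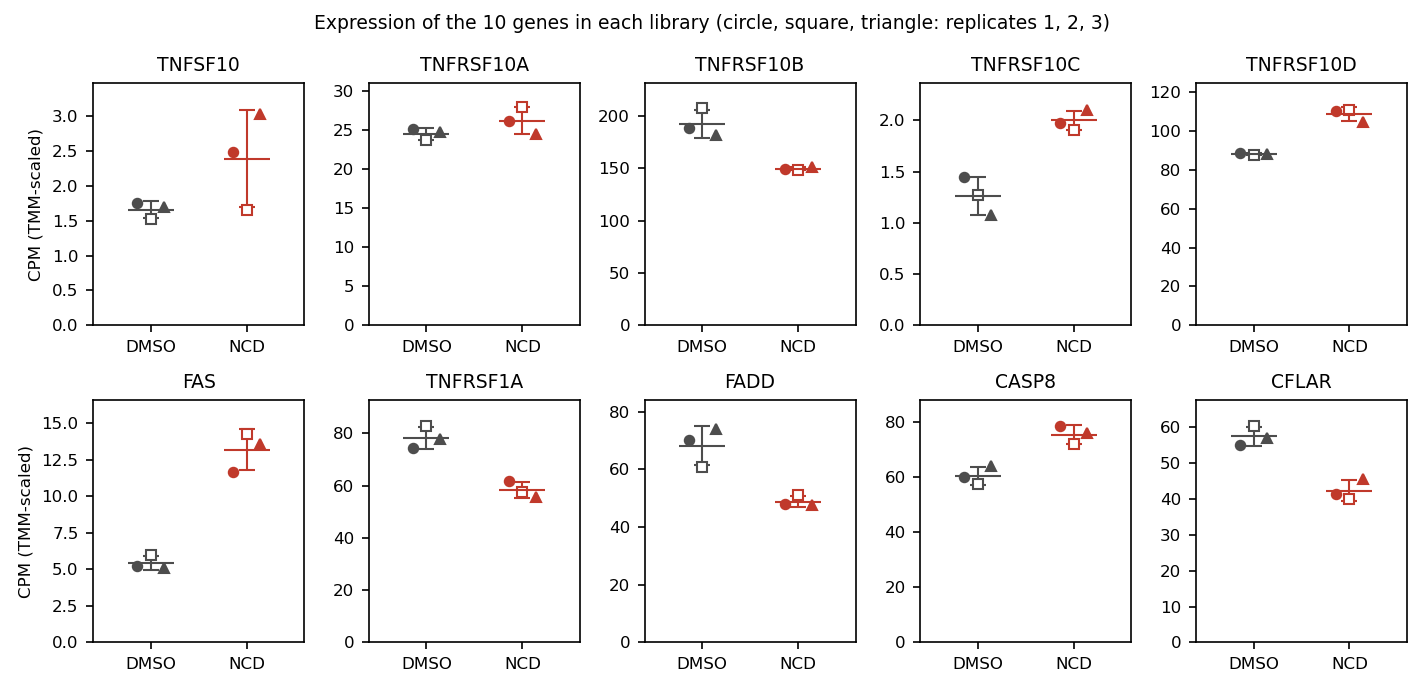
Level of each of the 10 genes in CPM (vertical axes, each from 0) in the 3 DMSO libraries (grey) and the 3 NCD libraries (red). Each point is 1 library, with bars for the mean and SD. FAS sits between 5.09 and 6.01 CPM with DMSO and between 11.7 and 14.3 CPM with NCD, and only the panels of TNFSF10 and TNFRSF10A overlap between the groups.

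The ligand was scarce. TNFSF10 (ENSG00000121858, GRCh38 chr3:172505508-172523507, minus strand) encodes TRAIL. It was at 1.75, 1.53 and 1.70 CPM in DMSO 1 to 3 and at 2.49, 1.66 and 3.03 CPM in NCD 1 to 3. NCD 1 and NCD 3 lay above every DMSO library and NCD 2 within their range. The means were 1.66 ± 0.116 and 2.39 ± 0.693 CPM (SD, n = 3), a log2 fold change of 0.53 (SE 0.26, 95% interval -0.05 to 1.12, adjusted p = 0.093 by edgeR). These levels rest on 27 to 31 counts per library with DMSO and 32 to 65 with NCD. The call turned on NCD 2, since without it the log2 fold change was 0.73 (adjusted p = 0.0259 by edgeR), it was 0.32 (adjusted p = 0.317) without NCD 3, and it was 0.27 (adjusted p = 0.449) without both DMSO 2 and NCD 3. Of the ligand genes for the other receptors, FASLG had 0 counts in all 6 libraries, which allows up to 3 counts per library, and TNF had at most 5 counts.

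The genes of the 4 TRAIL receptors on the membrane lie close together on chromosome 8 and did not move together. TNFRSF10B fell, the decoy receptor genes TNFRSF10C and TNFRSF10D rose, and TNFRSF10A did not pass the test. In order along GRCh38 they are TNFRSF10B (ENSG00000120889, chr8:23020133-23069179, minus strand), TNFRSF10C (ENSG00000173535, chr8:23102590-23117437, plus strand), TNFRSF10D (ENSG00000173530, chr8:23135588-23164030, minus strand) and TNFRSF10A (ENSG00000104689, chr8:23190452-23225126, minus strand).

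TNFRSF10B encodes DR5, a signalling receptor for TRAIL and a known target of the stress factor CHOP. Its levels were 188.1, 207.4 and 181.8 CPM with DMSO and 148.9, 148.6 and 150.9 CPM with NCD. Every NCD library lay below every DMSO library, and the NCD values were close together. The log2 fold change was -0.36 (SE 0.06, 95% interval -0.51 to -0.22, adjusted p = 0.000728 by edgeR). Scaled by library totals it was -0.17 with an adjusted p of 0.0502, which ends the call, and with ribosomal protein genes as reference it was -0.38 (adjusted p = 0.0692). RHOBTB2, on the opposite strand, shares 67 exon bases with TNFRSF10B and had a log2 fold change of 0.52 (SE 0.08).

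TNFRSF10A encodes DR4, the other signalling receptor. It was at 25.1, 23.7 and 24.8 CPM with DMSO and at 26.2, 28.0 and 24.5 CPM with NCD. NCD 3 lay inside the DMSO range, and the log2 fold change was 0.09 (SE 0.08, 95% interval -0.09 to 0.28, adjusted p = 0.321 by edgeR). Scaled by library totals it was 0.29 (adjusted p = 0.00808). TNFRSF10A shares 266 exon bases with its divergent transcript TNFRSF10A-DT on the opposite strand, whose counts were 48 to 68.4 with DMSO and 152.5 to 203.8 with NCD. Since the strand setting of the counting is not given in the sources used here, reads of overlapping genes may not have been told apart.

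The decoy receptor genes were both higher. TNFRSF10D encodes DcR2, which has a truncated death domain, and was at 88.8, 87.9 and 88.2 CPM with DMSO and 110.6, 111.0 and 104.9 CPM with NCD. The groups were well apart, the DMSO libraries having an SD of 0.430 CPM around 88.3 CPM. Its log2 fold change was 0.30 (SE 0.06, 95% interval 0.18 to 0.43, adjusted p = 0.000997 by edgeR). TNFRSF10C encodes DcR1, a lipid-anchored receptor with no death domain, and was at the edge of detection. It had 1.45, 1.27 and 1.08 CPM with DMSO and 1.98, 1.91 and 2.10 CPM with NCD, from 19.6 to 24.0 and from 36.9 to 45.3 expected counts. The groups did not overlap, and the log2 fold change was 0.66 (SE 0.22, 95% interval 0.16 to 1.16, adjusted p = 0.0235 by edgeR). That call was lost in 5 of the 6 fits that left out 1 library, all but the one without DMSO 1, with adjusted p from 0.0525 (without NCD 2) to 0.0927 (without DMSO 3). It was lost too in DESeq2 (adjusted p = 0.113) and without both DMSO 2 and NCD 3 (0.61, adjusted p = 0.11). A noncoding gene on the same strand, ENSG00000284948, shares 485 bases or 26.0% of the exon bases of TNFRSF10C and rose from 10.6 to 20.4 counts with DMSO to 53.1 to 75.3 counts with NCD (log2 fold change 1.73, adjusted p = 0.000243 by edgeR), and how reads were divided between them was not tested.

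FAS (ENSG00000026103, chr10:88990582-89015785, plus strand), the receptor for FAS ligand, whose promoter windows are printed above, gave the largest change of the 10 genes. Its levels were 5.24, 6.01 and 5.09 CPM in DMSO 1 to 3 and 11.7, 14.3 and 13.6 CPM in NCD 1 to 3. The lowest NCD library was well above the highest DMSO library. The means were 5.45 ± 0.491 and 13.2 ± 1.39 CPM (SD, n = 3), and the log2 fold change was 1.28 (SE 0.13, 95% interval 0.99 to 1.56, adjusted p = 2.09e-05 by edgeR). It stayed between 1.20 and 1.47 and past both limits in all 17 alternative fits, at 1.32 without DMSO 2 and NCD 3. FAS overlaps ACTA2, the smooth muscle actin gene on the opposite strand, in 380 exon bases (8.93% of its own). ACTA2 rose alongside it, from 40.3, 62.5 and 42.8 counts with DMSO to 184.6, 142.0 and 200.9 counts with NCD, a log2 fold change of 1.57 (SE 0.19, adjusted p = 7.23e-05 by edgeR). FAS itself had 87.0 to 106.2 counts with DMSO and 266.9 to 291.9 with NCD, so each gene had more counts in every NCD library. The part of shared reads in either value was not tested.

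TNFRSF1A (ENSG00000067182, chr12:6328757-6342114, minus strand), which encodes TNF receptor 1, fell. It was at 74.4, 82.8 and 77.6 CPM with DMSO and at 61.7, 57.6 and 55.6 CPM with NCD. The groups did not overlap, and the mean fell from 78.3 ± 4.22 to 58.3 ± 3.10 CPM (SD, n = 3). The log2 fold change was -0.42 (SE 0.07, 95% interval -0.59 to -0.26, adjusted p = 0.000568 by edgeR). FAS and TNFRSF1A, both with a death domain, thus moved in opposite directions.

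Among the genes of the complex, transcripts of the adaptor and the inhibitor fell and those of the protease rose. FADD (ENSG00000168040, chr11:70203163-70207390, plus strand), the adaptor that links receptor and caspase, was at 70.0, 60.9 and 73.9 CPM with DMSO and at 47.8, 51.0 and 47.7 CPM with NCD. DMSO 2 was the lowest of its group, yet above every NCD library. The log2 fold change was -0.48 (SE 0.08, 95% interval -0.67 to -0.29, adjusted p = 0.00074 by edgeR), and -0.55 without DMSO 2 and NCD 3. FADD shares 1011 exon bases, or 54.9% of its own, with an antisense gene, ENSG00000254721, whose own log2 fold change was 0.04 (SE 0.20).

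CASP8 (ENSG00000064012, chr2:201233443-201287711, plus strand), the initiator protease, was at 60.0, 57.6 and 64.1 CPM with DMSO and at 78.7, 72.0 and 76.0 CPM with NCD. The groups did not overlap, with means of 60.6 ± 3.31 and 75.6 ± 3.38 CPM (SD, n = 3). Its log2 fold change was 0.32 (SE 0.07, 95% interval 0.16 to 0.48, adjusted p = 0.00269 by edgeR). CFLAR (ENSG00000003402, chr2:201116104-201176687, plus strand), the gene of FLIP, was at 54.9, 60.3 and 57.0 CPM with DMSO and at 41.4, 39.9 and 45.4 CPM with NCD. Here the NCD libraries were all lower, with means of 57.4 ± 2.70 and 42.3 ± 2.86 CPM (SD, n = 3). The log2 fold change was -0.44 (SE 0.08, 95% interval -0.62 to -0.27, adjusted p = 0.000713 by edgeR). Both genes lie on the plus strand of chromosome 2 within the same cluster, with the related protease gene CASP10. CASP10 was at 13.5, 14.1 and 14.3 CPM with DMSO and at 21.6, 21.5 and 21.5 CPM with NCD, all NCD libraries above all DMSO libraries, a log2 fold change of 0.62 (SE 0.08, adjusted p = 0.000118 by edgeR). With ribosomal protein genes as reference the calls for CASP8 (0.32, adjusted p = 0.0948), CFLAR (-0.45, adjusted p = 0.0668) and TNFRSF10D (0.29, adjusted p = 0.0905) were lost, with directions kept.

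**Figure D2:**
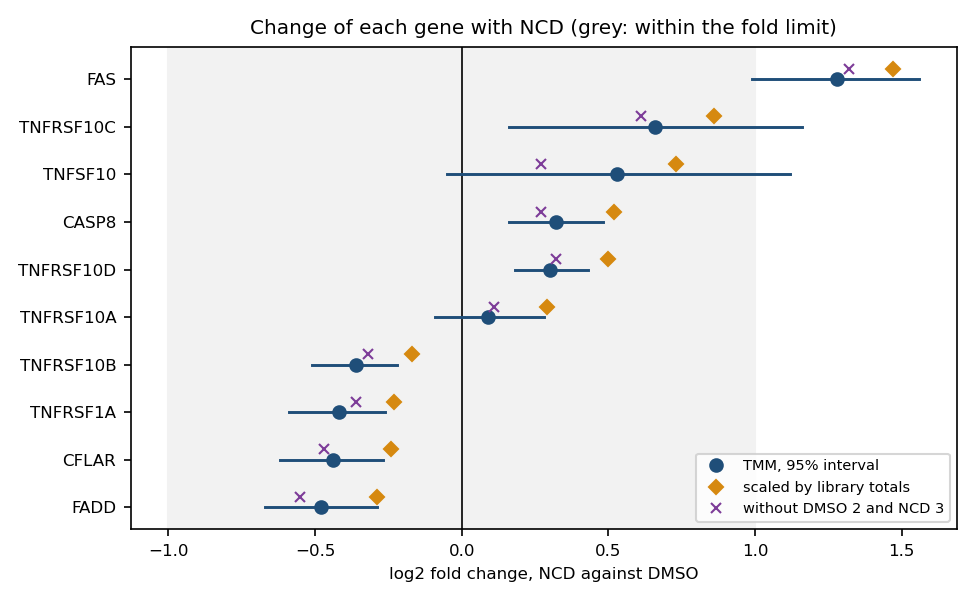
Log2 fold change of each gene, NCD against DMSO (horizontal axis), with its 95% interval, beside the value scaled by library totals (diamonds) and the value without DMSO 2 and NCD 3 (crosses), and the grey band marks changes within the fold limit. FAS at 1.28 is the only gene outside the band, and library totals move every gene to the right without changing a direction.

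Levels per length put the genes in an order, with each CPM divided by the median length in kb of the gene's protein-coding transcripts. With DMSO the order of mean CPM per kb was TNFRSF10B (65.6), TNFRSF1A (51.2), FADD (37.1), CFLAR (34.9), CASP8 (31.8), TNFRSF10D (25.0), TNFRSF10A (13.3), FAS (3.94), TNFSF10 (0.928) and TNFRSF10C (0.735). Libraries of neighbours in that order overlapped for FADD and CFLAR and for CFLAR and CASP8. With NCD the order of mean CPM per kb became TNFRSF10B (50.9), CASP8 (39.7), TNFRSF1A (38.2), TNFRSF10D (30.8), FADD (26.5), CFLAR (25.7), TNFRSF10A (14.2), FAS (9.55), TNFSF10 (1.34) and TNFRSF10C (1.16). Here CASP8 overlapped with TNFRSF1A, FADD with CFLAR and TNFSF10 with TNFRSF10C. CASP8 thus went from the fifth to the second place, and FAS, in spite of its rise, kept the eighth place below TNFRSF10A. The order depends on the lengths taken. The 12 coding transcripts of CFLAR run from 693 to 14672 bases, and its DMSO level would be 82.8 CPM per kb by the shortest and 3.91 by the longest. That of CASP8 would be 57.1 by its shortest and 20.7 by its longest, on either side of several neighbours, and TNFRSF10B, at 46.4 by its longest transcript, would lie below TNFRSF1A at its median length.

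The balance between transcripts of these genes was read as ratios of levels per kb within each library, so that library scaling cancels. RNA counts do not measure protein levels, receptors on the membrane, caspase activity or cell death. The log2 ratio of CASP8 to CFLAR was -0.08, -0.28 and -0.04 with DMSO and 0.71, 0.64 and 0.53 with NCD. CASP8 was below CFLAR in every DMSO library and above it in every NCD library by these lengths, and the mean log2 ratio moved by 0.76, a 1.70-fold shift in the ratio. With the same length taken in every library, the length of CFLAR sets the level of this ratio but not the difference between the groups. Whether the use of longer or shorter CFLAR transcripts changed with NCD was not tested. Among the TRAIL receptors, the log2 ratio of TNFRSF10A and TNFRSF10B together to the decoys TNFRSF10C and TNFRSF10D was 1.58, 1.71 and 1.56 with DMSO and 1.00, 1.02 and 1.07 with NCD. Signalling receptor transcripts went from 3.07 to 2.04 times those of the decoys by these lengths, and no library of one group reached the other. TNFRSF10B and TNFRSF10D carried most of these sums. With DMSO they were at 65.6 and 25.0 CPM per kb, and TNFRSF10A and TNFRSF10C at 13.3 and 0.735. The levels of this ratio depend on the lengths taken. Its log2 difference was -0.59, and -0.61 without division by length. The log2 ratio of TNFRSF10B to TNFRSF10A fell from 2.30 ± 0.14 to 1.84 ± 0.11 (SD, n = 3), and that of CASP8 to CASP10 from 2.24 ± 0.08 to 1.93 ± 0.06 (SD, n = 3). In each of these 4 ratios the groups did not overlap, and the two-sided exact permutation test gave p = 0.1, the smallest that this test allows with 3 libraries against 3 (0.1 with Benjamini-Hochberg adjustment over the 4), so it cannot reach 0.05 here.

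**Figure D3:**
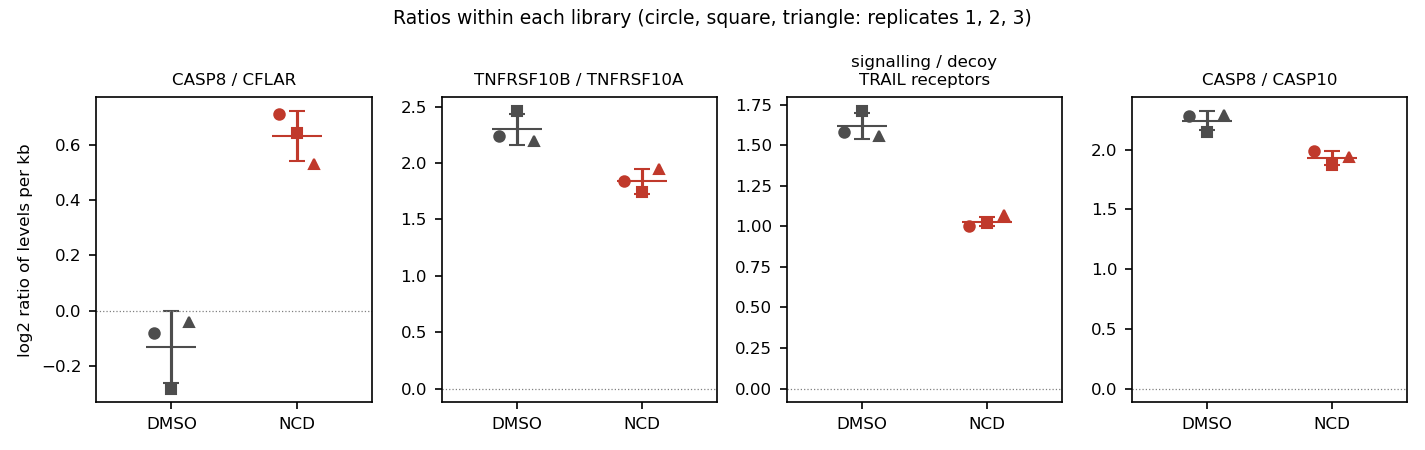
Log2 ratio of levels per kb (vertical axes) within each DMSO library (grey) and NCD library (red) for 4 pairs, each point 1 library, with bars for the mean and SD and a dotted line at equal levels. CASP8 to CFLAR goes from -0.13 to 0.63 across that line, and the other three ratios fall.

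In these libraries long genes had lower fold changes than short ones, so the span of each gene is given beside its change. The 10 genes span 4.2 kb (FADD) to 60.6 kb (CFLAR), and none lies in the longest size classes. Tested genes were sorted by span into 10 classes of nearly equal number, leaving out those without a span in the annotation used here. Genes of the size of FAS (20.1 to 29.0 kb) had a median log2 fold change of 0.32 with quartiles of -0.10 and 0.78. FAS at 1.28 lay above that upper quartile, and TNFRSF10D at 0.30 near the same median. TNFRSF1A at -0.42 lay below the lower quartile, -0.03, of genes of its size (median 0.43). FADD at -0.48 also lay below the lower quartile, -0.05, of its class (median 0.39). CFLAR at -0.44 was near the median of -0.35 for genes of 58.9 to 89.7 kb, while CASP8 at 0.32 and TNFRSF10B at -0.36, in a class with a median of -0.03, lay within its quartiles of -0.45 and 0.43. TNFRSF10C and TNFSF10, at 0.66 and 0.53, were within the quartiles of theirs, -0.03 and 0.89, and TNFRSF10A at 0.09 was near its median of 0.11. Counts were made per gene, and the part of span in each change was not tested.

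**Figure D4:**
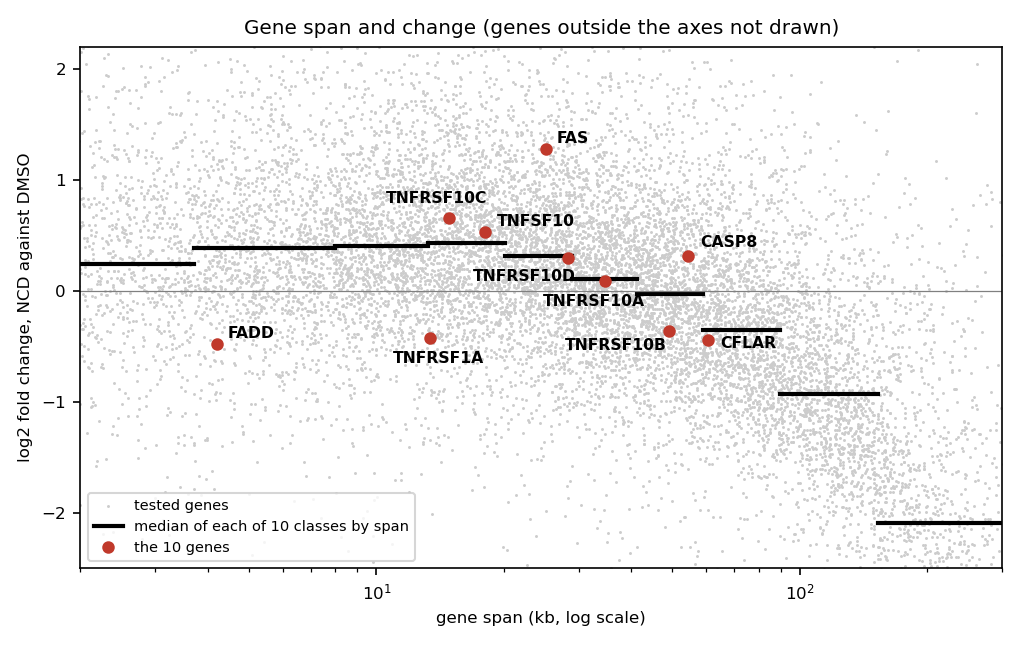
Log2 fold change (vertical axis) against the genomic span of each gene in kb (log axis). Grey points are tested genes with an annotated span, and red points are the 10 genes. Black bars give the median of each of 10 classes of genes by span. FAS stands above the bar of its size class, TNFRSF1A and FADD stand below theirs, and CFLAR lies close to its own.

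The other genes of the pathway were taken from 3 written lists of 66 genes, 57 of them tested. Past the fold limit 4 were higher and 7 lower, which is 19.3% of the 57 against 31.0% of all tested genes. The count of higher genes was 11 with scaling by library totals. Without a fold limit 23 were higher, 22 lower and 12 not past the test, so that 78.9% passed against 69.3% of all tested genes. Without DMSO 2 and NCD 3, 5 were higher and 9 lower past the fold limit, and the share of all tested genes in that fit is not given either. Their median log2 fold change was 0.03, against 0.20 for the 10 genes and 0.04 for all tested genes.

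Of 18 other ligands and receptors, 10 were tested, and 1 was past the fold limit (10.0%, against 31.0% of all tested genes). That gene, TNFRSF21, encodes the death receptor DR6 and was at 71.5, 70.4 and 65.0 CPM with DMSO and 30.2, 29.0 and 26.7 CPM with NCD, all NCD libraries lower. Its log2 fold change was -1.27 (SE 0.08, adjusted p = 9.15e-07 by edgeR), below the lower quartile of -0.78 of its span class (78.4 kb). At any fold 4 of the tested genes were higher and 3 lower, which is 70.0% against 69.3% of all tested genes. The median was -0.19.

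Of 29 complex partners and modifiers, 28 were tested. Past the fold limit 2 were higher and 4 lower, which is 21.4% against 31.0% of all tested genes. At any fold 12 were higher and 11 lower, which is 82.1% against 69.3%. FAF1, a FAS-associated factor, was at 101.7, 98.3 and 98.3 CPM with DMSO and 1.05, 1.50 and 1.03 CPM with NCD, far lower in every NCD library. Its log2 fold change was -6.39 (SE 0.12, adjusted p = 4.2e-09 by edgeR). At 523.2 kb the gene belongs to the class of longest genes, whose median log2 fold change was -2.09. FAF1 lay below the lower quartile of that class, -3.05. MAP3K7, the kinase TAK1 that carries the survival signal from TNF receptor 1, fell by 1.48 on the log2 scale (SE 0.10, adjusted p = 1.84e-06 by edgeR), below the lower quartile of -0.78 of its span class (73.5 kb). CUL3, a ubiquitin ligase scaffold known to modify caspase-8, fell by 1.37 (SE 0.10, adjusted p = 3.38e-06 by edgeR), within the quartiles of its span class, -1.40 and -0.33 (115.2 kb). TNFAIP3, the ubiquitin editing enzyme A20 and itself an NF-kB target, rose from 9.52, 10.1 and 9.48 CPM with DMSO to 19.1, 23.1 and 23.9 CPM with NCD (log2 fold change 1.18, SE 0.11, adjusted p = 1.45e-05 by edgeR), above the upper quartile of 0.89 of its span class (16.1 kb). ITCH and TRAF1 were the other genes of this list past the fold limit, at -1.36 and 1.29. RIPK1 and BIRC2 were named after their values were seen. RIPK1 rose from 40.4 ± 4.02 to 69.3 ± 2.85 CPM (SD, n = 3) while the inhibitor of apoptosis BIRC2 fell from 264.6 ± 21.3 to 133.4 ± 21.4 CPM (SD, n = 3).

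Of 19 genes of the executioner and mitochondrial arm, all were tested. Past the fold limit 2 were higher and 2 lower, which is 21.1% against 31.0% of all tested genes. At any fold 7 were higher and 8 lower, which is 78.9% against 69.3%. ROCK1, a kinase cleaved by caspases during membrane blebbing, was at 54.8, 105.7 and 79.9 CPM with DMSO and 11.8, 13.7 and 27.0 CPM with NCD. The groups were apart, but DMSO 2 and NCD 3 were the highest of each. The log2 fold change was -2.19 (SE 0.32, adjusted p = 0.000272 by edgeR), close to the -2.09 median of its span class, and it was -2.42 (SE 0.15) without DMSO 2 and NCD 3. AIFM1, the mitochondrial apoptosis-inducing factor, fell by 1.22 (SE 0.07, adjusted p = 6.48e-07 by edgeR), below the lower quartile of -0.29 of its span class (36.5 kb). ENDOG, a mitochondrial nuclease, rose by 1.15 (SE 0.23, adjusted p = 0.00159 by edgeR), above the upper quartile of 0.90 of its class (4.2 kb). Without DMSO 2 the rise of ENDOG was 0.97, inside the fold limit. SEPTIN4 was the remaining gene past the limit, at 1.18. CASP6, a caspase named after its values were seen, rose by 0.93 (SE 0.09, adjusted p = 1.18e-05 by edgeR).

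**Figure D5:**
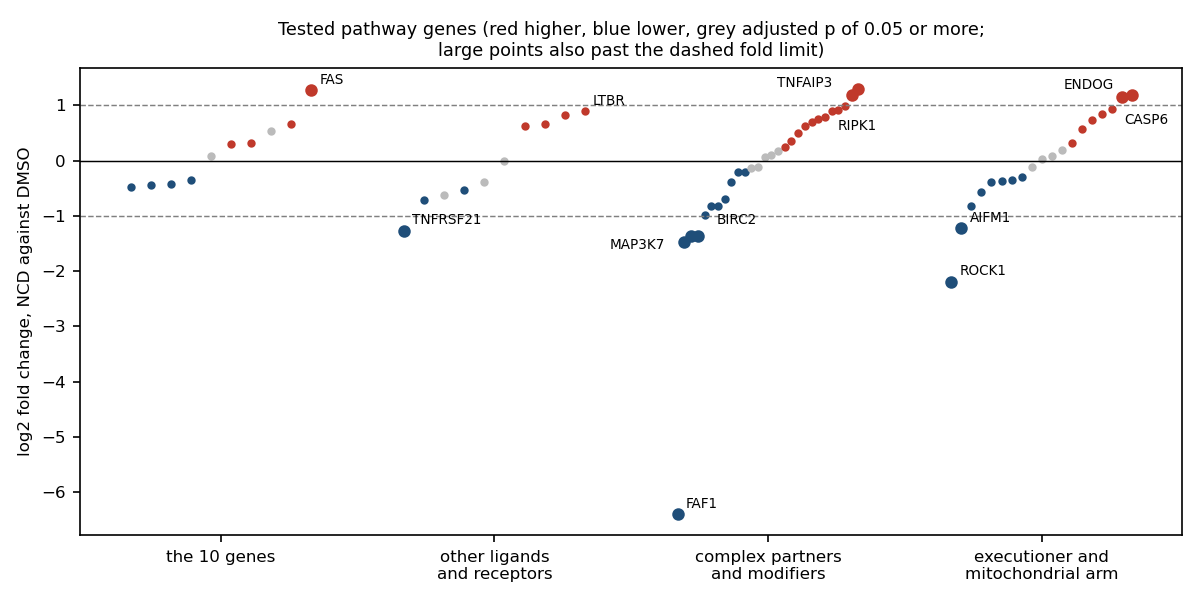
Log2 fold change, NCD against DMSO (vertical axis), of each tested gene in the 10 genes and the 3 other lists, sorted within each. Red points are higher and blue points lower at an adjusted p below 0.05, and large points are also past the dashed fold limit of 1. FAF1 at -6.39 lies far below all others, and each list holds genes on both sides of 0.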

How the data were processed

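RNA was sequenced from 3 DMSO and 3 NCD libraries of MDA-MB-231 cells. The deposited values are expected counts per Ensembl gene, which the authors made with HISAT2 and RSEM on GRCh38 (hg38), per the labels and the submitters' processing notes, 1 file per library and not normalized. Versions, annotation release and strand setting are not given in the sources used here. Each file holds 25 lines without a gene, which were left out.

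Expected counts were rounded and fitted with edgeR 4.0.16 in R 4.3.3 over both groups with no covariate (filterByExpr, TMM factors of 0.911 to 0.949 with DMSO and 1.06 to 1.09 with NCD, glmQLFit, glmQLFTest, Benjamini-Hochberg over 15295 genes). The SE is the log2 fold change divided by the root of the F statistic. Ratios were compared by exact permutation with scipy 1.17.1. The edgeR fit and call were checked on simulated counts, and the permutation test on small made-up sets with known answers. Positions, spans and lengths are from GENCODE 29 (GRCh38), which may differ from the authors' annotation.

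The 10 genes and all lists were chosen with earlier results of these data known. Pathway genes were named by rule as up to 3 rises and 3 falls per list past the fold limit with a mean of at least 5 CPM over the 6 libraries. Genes named outside that rule include ITCH, TRAF1 and SEPTIN4, as the remaining genes past the fold limit. CASP10 was named for its ratio to CASP8. RIPK1, BIRC2 and CASP6, inside the fold limit, were named after their values were seen. Some genes of the lists are not reported here by name. Alternatives were DESeq2 1.42.0, limma-voom (limma 3.58.1), other scalings and filters, no fold limit, a prior count of 2, a replicate block, each library left out, and, added after seeing the data, DMSO 2 and NCD 3 both left out and merged exon length. At these depths genes with as few counts as TNFSF10 and TNFRSF10C are measured loosely. Limits for counts of 0 use 3 counts and cover counting error only.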

Additional observations from a re-analysis of the deposited data

How the results depend on the processing

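No log2 fold change of the 10 genes changed direction in 170 values from alternative fits. Of these 152 kept their side of the 0.05 threshold (adjusted p, and unadjusted p in 1 DESeq2 alternative), 15 lost it (10 of them for TNFRSF10C) and 3 gained it, namely TNFRSF10A with library totals and TNFSF10 with library totals (0.73, adjusted p = 0.0329 by edgeR) and without NCD 2. The 15 named pathway genes kept direction and side of that threshold in all 255 such values. Most of them were named for changes seen in these same libraries, so this outcome was nearly fixed in advance. It cannot be set beside that of the 10 genes. Scaling by library totals moved the median log2 fold change of all genes by 0.20. With no fold threshold 4 of the 10 genes were higher and 4 lower, in place of 1 and 0, and among the other pathway genes 23 were higher and 22 lower, in place of 4 and 7. With library totals, the scaling that moved the median of all genes, 11 other pathway genes were higher past the fold limit. Leaving out 1 library gave 1 higher and 0 lower among the 10 genes and 3 to 6 higher and 7 to 9 lower among the other pathway genes. The shares of all tested genes in these fits are not given, so these counts were not set against them. The differences in log2 ratio stayed within 0.69 to 0.81 for CASP8 to CFLAR, -0.51 to -0.37 for TNFRSF10B to TNFRSF10A, -0.62 to -0.54 for signalling to decoy receptors and -0.35 to -0.27 for CASP8 to CASP10.

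The groups share replicate numbers, but nothing in the labels pairs them, and the deviations of libraries of the same number correlated at 0.473, -0.463 and -0.0263, so they were not treated as pairs. Between libraries of different numbers the correlations ran from -0.598 (DMSO 1 and NCD 3) to 0.596 (DMSO 2 and NCD 3). DMSO 2 and NCD 3 thus deviated from their group means in a similar way across genes, and what lies behind this was not tested. With the replicate number as a block, 1 of the 10 genes was higher and 0 lower, TNFRSF10C kept its call (0.66, adjusted p = 0.0486 by edgeR), and no call among the 10 genes changed. With a replicate block the ratio differences kept their values, and the smallest sign-flip p over 3 pairs is 0.25. Depth limits TNFSF10 and TNFRSF10C most.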
